A study of Homo sapiens with 6 samples.

Results

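The genes described here encode 9 proteins of mitosis: CENPF, CENPE, KNL1 and BOD1L1, ASPM, NUMA1, TPX2 and CKAP5, and MKI67. They were chosen from 20050 coding genes of a RefSeq table (GRCh38.p14), CENPF, MKI67 and ASPM for their many N6-methyladenosine (m6A) peaks in these data and the others for the same function. The peaks counted are those that touch the gene bodies, 136 of the 17375 peaks in the lists compared. Peak numbers therefore chose some of the genes, and they are given as a description with no test.

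The RNA came from U-251 MG, an established human glioblastoma cell line. The labels name shTRA2A, a short hairpin RNA against the splicing regulator TRA2A, shMETTL3, a hairpin against METTL3, the enzyme that methylates adenosine in messenger RNA, and shNC, the control hairpin. Each condition had 1 immunoprecipitated library and 1 input library, 6 libraries in all, and is represented by 1 peak list, so no difference below has a replicate check. The sources used here give neither the read depth nor how many hairpin sequences or cell clones stand behind each label.

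m6A is written on nascent messenger RNA by a complex around METTL3 and METTL14, and is concentrated in long internal exons and near stop codons. Proteins that bind the mark influence splicing, translation and decay of the transcript. Several of the genes below, CENPF, ASPM, TPX2 and MKI67 among them, are transcribed mostly in late interphase and mitosis. CENPF, CENPE and KNL1 act at kinetochores, the structures that tie chromosomes to spindle microtubules. BOD1L1 is a relative of the kinetochore regulator BOD1 that is best known for protecting stalled replication forks. ASPM, NUMA1, TPX2 and CKAP5 organise the spindle, and MKI67 encodes Ki-67, the proliferation marker that coats mitotic chromosomes.

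The 9 genes held 18 shTRA2A, 42 shMETTL3 and 76 shNC peaks, which are 0.658%, 0.773% and 0.826% of the 2736, 5433 and 9206 peaks of these lists. All 9 had a control peak. In the shTRA2A list 5 of them had a peak (CENPF, BOD1L1, NUMA1, TPX2 and MKI67), and in the shMETTL3 list 6 (CENPF, KNL1, BOD1L1, ASPM, NUMA1 and MKI67). Over all coding genes marked in the control, a peak was also present in shTRA2A for 28.7% and in shMETTL3 for 48.6%. Nothing is read from that contrast, since peak numbers helped to choose the genes. The summed peak number was 23.7% of the control number in the shTRA2A list and 55.3% in the shMETTL3 list, against 29.7% and 59.0% for the whole lists.

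CENPF had 2 shTRA2A, 12 shMETTL3 and 26 shNC peaks, the most of any coding gene in the control list and the second most in the shMETTL3 list. BOD1L1 had 4, 6 and 17 peaks in these lists, and MKI67 had 5, 6 and 17, which placed the pair sixth in the control. ASPM had no shTRA2A peak, 8 shMETTL3 peaks and 6 shNC peaks, and so fewer control peaks than BOD1L1. NUMA1 had 6, 8 and 5, KNL1 had 0, 2 and 1, and TPX2 had 1, 0 and 1. Most of the 8 shMETTL3 peaks counted for NUMA1 also lie in the body of IL18BP, an overlapping coding gene, and may belong to it. The sums above include them, and without them NUMA1 has fewer shMETTL3 than control peaks. Most of the shTRA2A and control peaks of NUMA1 lie in NUMA1-AS1, a long non-coding RNA gene inside its body. CENPE had 2 and CKAP5 had 1 control peak, and neither had a peak in a knockdown list. By length of the gene body, introns included, MKI67 was the most densely marked in the control, with 5.71 peaks per 10 kb, followed by CENPF with 4.24 and BOD1L1 with 2.88. The other 6 genes had 0.0969 to 0.959 control peaks per 10 kb. Peak lists carry no transcript levels, so fewer transcripts and less methylation per transcript cannot be told apart, nor can the lists show how many cells were cycling or how far either hairpin reduced its target.

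**Figure D1:**
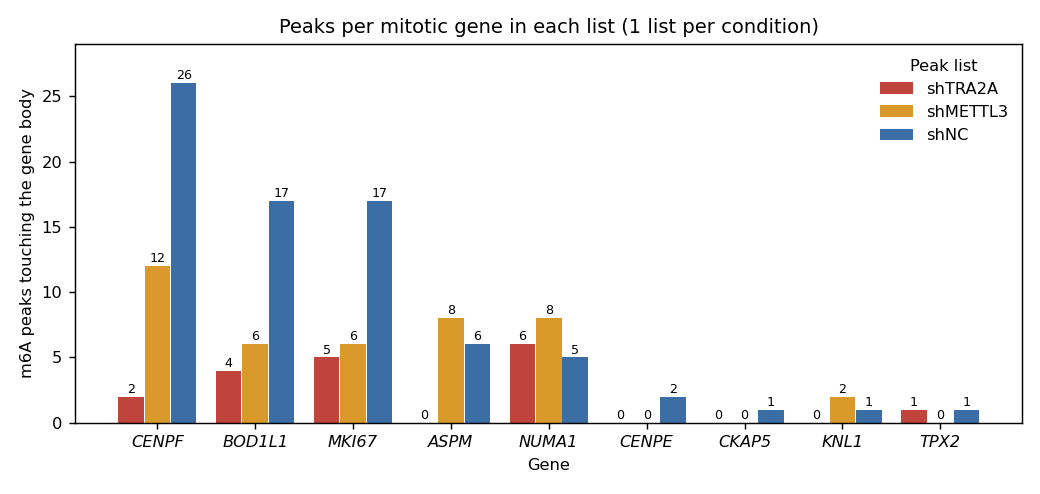
Number of m6A peaks that touch the body of each gene (vertical axis) in the shTRA2A, shMETTL3 and shNC lists, with 1 list per condition and so no error bars. CENPF stands at 2, 12 and 26 peaks, and NUMA1 and ASPM are the genes with more shMETTL3 than shNC peaks among those with at least 5 control peaks. Most shMETTL3 peaks counted for NUMA1 also lie in the body of IL18BP, an overlapping coding gene, and may belong to it. Without these peaks NUMA1 has fewer shMETTL3 than shNC peaks. Most of its shTRA2A and shNC peaks lie in NUMA1-AS1, a non-coding gene inside its body. In ASPM the shMETTL3 peaks cover 525 nt and the shNC peaks 1125 nt.

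CENPF, ASPM and MKI67 also share letters in their promoters, shown here because genes expressed in late interphase often carry a CHR element (TTTGAA) near CCAAT boxes, which bind cell cycle complexes and NF-Y. RefSeq windows on GRCh38.p14, from 250 bases before to 50 after the gene start, were at hand for 7 of the 9 genes, all but KNL1 and TPX2. The CHR letters, searched on both strands (reverse complement TTCAAA), were present in 4 of the 7, CENPF, ASPM, CKAP5 and MKI67, and in 15.2% of all 35116 windows. CCAAT (reverse complement ATTGG) was present in these 4 and in NUMA1, and in 34.6% of all windows. Both motifs stood together in 4 of the 7 and in 5.90% of all windows. CENPE and BOD1L1 had neither. All windows here include those of non-coding genes, and no difference from them was tested. The windows of CENPF (chr1:214602945-214603244, plus strand), ASPM (chr1:197146620-197146919, minus strand) and MKI67 (chr10:128126374-128126673, minus strand) read as follows, 5′ to 3′ on the strand of the gene, with both motifs in capitals.
CENPF: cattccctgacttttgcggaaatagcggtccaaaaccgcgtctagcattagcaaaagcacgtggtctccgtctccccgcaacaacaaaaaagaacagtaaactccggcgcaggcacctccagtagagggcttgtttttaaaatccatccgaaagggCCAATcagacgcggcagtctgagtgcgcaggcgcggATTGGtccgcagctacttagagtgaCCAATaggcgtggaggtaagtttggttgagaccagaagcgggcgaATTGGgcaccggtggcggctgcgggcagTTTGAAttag
ASPM: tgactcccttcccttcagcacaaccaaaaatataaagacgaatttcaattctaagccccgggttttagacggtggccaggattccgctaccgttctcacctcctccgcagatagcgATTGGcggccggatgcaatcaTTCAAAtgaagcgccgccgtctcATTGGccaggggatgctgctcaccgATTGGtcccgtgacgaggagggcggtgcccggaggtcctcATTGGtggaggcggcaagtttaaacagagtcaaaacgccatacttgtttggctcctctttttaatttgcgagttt
MKI67: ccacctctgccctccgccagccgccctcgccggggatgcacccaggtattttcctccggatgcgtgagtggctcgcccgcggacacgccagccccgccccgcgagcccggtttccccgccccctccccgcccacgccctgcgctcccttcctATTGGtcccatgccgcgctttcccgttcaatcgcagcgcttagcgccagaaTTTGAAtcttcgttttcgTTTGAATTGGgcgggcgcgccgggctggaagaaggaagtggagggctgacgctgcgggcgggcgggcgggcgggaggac

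Counted from the gene start, the CHR letters lie at position 41 in CENPF, -113 in ASPM, and -47 and -29 in MKI67, where the last TTTGAA shares its final base with an ATTGG at -24. CCAAT letters occur 4 times in the CENPF window, 4 times in that of ASPM and 2 times in that of MKI67. No peak of any list, on either strand, touches the promoter window of one of the 7 genes, so these letters describe the genes and not their peaks. A genome was not used here, so sequence under the peaks is not shown, and exons, introns and untranslated regions were not assigned.

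At the kinetochore, CENPF (chr1:214603195-214664571, plus strand) carried its control peaks in 5 stretches. The largest holds 17 of the 26 control peaks within 8.50 kb (chr1:214640244-214648747), from 60.4% to 72.7% of the way along the gene body. In the same stretch lay 2 shTRA2A and 6 shMETTL3 peaks. Its strongest control peak (chr1:214646851-214648747, score 63.8) ranked 167 of 9206 in that list. The peak score is the authors' own value for each peak, its scale is not stated, and it is used only within a list.

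Both shTRA2A peaks of CENPF lay at one place. They were 50 nt wide, at chr1:214645051-214645100 (score 7.54) and chr1:214645151-214645200 (score 7.91), and both were below the median score of the shTRA2A list. Each overlapped the same control peak (chr1:214645076-214645200, score 16.0), so 1 of the 26 CENPF control peaks was found in the shTRA2A list. The shMETTL3 list overlapped 9 of the 26, none of them the one found in shTRA2A. A share of 1 in 26 compares with 9.58% of all control peaks for shTRA2A, and 9 in 26 with 17.9% for shMETTL3.

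The shMETTL3 peaks of CENPF lay on control peaks in 9 of 12 cases, spread from 27.3% of the gene body to its end. A span of 1407 nt (chr1:214643269-214644675, score 8.76) was the control span of the same width (chr1:214643244-214644650, score 32.7) displaced by 25 nt. Near the 3′ end, the shMETTL3 span chr1:214657348-214658936 (score 9.60) began on the same base as a control span of 1614 nt. Of the 3 shMETTL3 peaks off the control peaks, 2 abutted a control peak with no base between. The remaining one, of 459 nt (chr1:214618694-214619152, score 11.7), lay 1534 nt from the nearest control peak, at 25.6% of the gene body.

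CENPE (chr4:103105811-103198343, minus strand), the kinetochore motor that carries chromosomes to the spindle equator, had a control span of 1069 nt (chr4:103144456-103145524, score 33.5, rank 737) and a control peak of 50 nt (score 9.79). They lay at 57.7% and 53.0% of the gene body, and neither knockdown list had a peak anywhere in the gene.

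KNL1 (chr15:40594249-40664342), the outer kinetochore scaffold that recruits checkpoint proteins, had its peaks close together but not on each other. The control peak (chr15:40621822-40622021, score 15.6) was 1025 nt away from the first of 2 shMETTL3 peaks, chr15:40623047-40623171 (score 10.9) and chr15:40623547-40623746 (score 14.5). Both shMETTL3 peaks were above the median score of their list, 8.40. KNL1 had no shTRA2A peak.

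BOD1L1 (chr4:13568738-13627725, minus strand) had the same control peaks overlapped in both knockdown lists. These 3 control peaks make up 3 of the 4 control peaks of the 9 genes that were found in both. The first lies towards the 3′ end, where a peak of each list ends on the same base, 13576931, with scores of 12.5 in shTRA2A, 15.2 in shMETTL3 and 24.1 in shNC. The second is the control peak chr4:13601730-13602079 (score 38.1), which holds the shTRA2A peak chr4:13601780-13601929 (score 11.0) and the shMETTL3 peak chr4:13601805-13602004 (score 4.78). The third, chr4:13603705-13603879, had the same bounds in the shTRA2A list (score 11.5) and in the control (score 17.8), and the shMETTL3 peak there covered its last 125 nt by coordinate (score 8.76).

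All 4 shTRA2A peaks of BOD1L1 were above the median score of the shTRA2A list. The gene's control peaks were densest in a stretch of 3.48 kb (chr4:13601480-13604954) with 10 of 17, where shTRA2A had 2 and shMETTL3 had 3 peaks. The strongest BOD1L1 control peak, a span of 1101 nt nearer the 5′ end (chr4:13614294-13615394, score 93.8, rank 61), was found in neither knockdown list. The nearest shTRA2A peak was 10414 nt from it and the nearest shMETTL3 peak 4590 nt. Off the control peaks lay an shTRA2A span of 1097 nt (chr4:13581141-13582237, score 8.89) and an shMETTL3 span of 3734 nt (chr4:13582729-13586462, score 8.44), with 491 nt between them. The other shMETTL3 peaks off the control were 75 nt wide (chr4:13603955-13604029, score 7.85) and 50 nt wide (chr4:13619985-13620034, score 7.46).

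**Figure D2:**
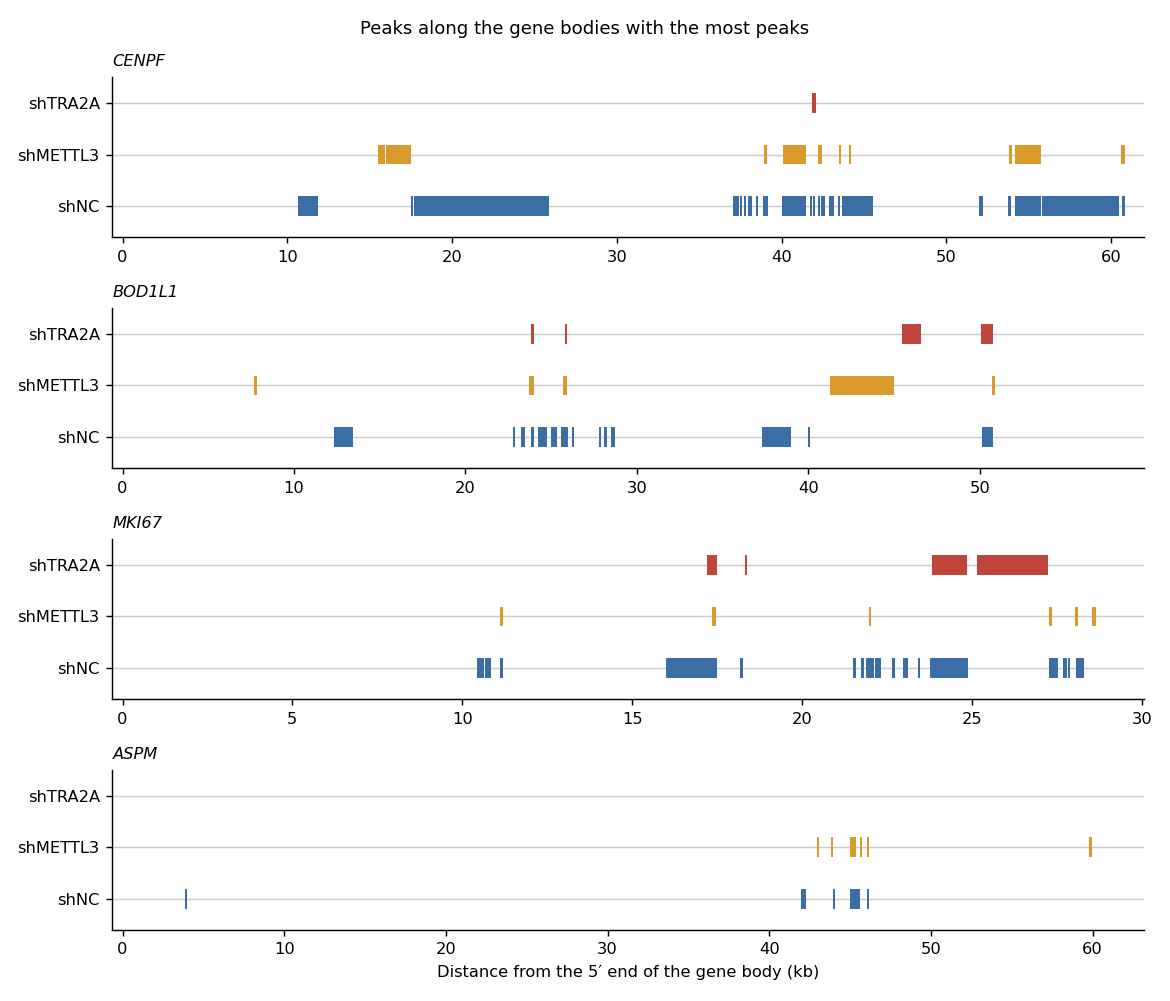
Peaks along the bodies of CENPF, BOD1L1, MKI67 and ASPM, with the distance from the 5′ end of the gene in kb on the horizontal axis and a row for each of the shTRA2A, shMETTL3 and shNC lists. Bars span whole peaks, and the narrowest are widened to stay visible. Of the CENPF control peaks, 17 of 26 lie in a stretch of 8.50 kb, and the ASPM row of shTRA2A is empty.

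Among the spindle genes, ASPM (chr1:197084127-197146669, minus strand), a microtubule minus-end protein of the spindle poles whose mutation causes microcephaly, had more peaks in shMETTL3 than in the control. The shMETTL3 peaks covered fewer bases, 525 nt against 1125 nt in the control. With peaks within 100 nt merged, the counts were 6 in shMETTL3 and 5 in the control. All 8 shMETTL3 peaks lay between 68.7% and 95.7% of the gene body and all 8 scored above the median of their list, between 8.43 and 16.2. The 6 control peaks scored 9.05 to 41.7, with 3 of them above the control median of 12.4, and 5 of the 6 lay between 67.1% and 73.6% of the body, the other at 6.19%. The strongest control peak, 600 nt wide (chr1:197101070-197101669, score 41.7), was overlapped by 3 shMETTL3 peaks. A peak of 50 nt (chr1:197100595-197100644) had the same bounds in shMETTL3 (score 9.31) and the control (score 11.1).

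The other 4 shMETTL3 peaks of ASPM were off the control peaks, 3 of them 25 to 625 nt away from the nearest one. The last (chr1:197086803-197086877, score 9.05) was 13717 nt away, at 95.7% of the gene body. Of the control peaks 2 of 6 were found in shMETTL3 and none in shTRA2A, which had no ASPM peak at all.

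MKI67 (chr10:128096659-128126423, minus strand) had its control peaks in 4 stretches, none before 35.4% of the gene body. The strongest was a span of 1504 nt (chr10:128108938-128110441, score 109, rank 39 of 9206), the strongest of all control peaks in the 9 genes. It was overlapped by 2 shTRA2A peaks, at chr10:128108938-128109137 (score 8.68) and chr10:128109163-128109212 (score 7.29), and by 1 shMETTL3 peak at chr10:128108963-128109087 (score 18.2). These 3 knockdown peaks all lay at the 3′ end of the span.

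The second strongest MKI67 control peak, of 1127 nt (chr10:128101536-128102662, score 65.9), held the shTRA2A span chr10:128101561-128102587 (score 12.0) and no shMETTL3 peak. The stretch around it, 3.40 kb long, had 8 control peaks, 1 shTRA2A peak and 1 shMETTL3 peak. At chr10:128115227-128115326 the shMETTL3 and control peaks had the same bounds. In the shMETTL3 list that peak had a score of 35.0, rank 49 of 5433, and was the best of the 42, while in the control it had a score of 16.7 and rank 2747. Whether methylation changed there cannot be read from ranks in lists of different length. In all, 2 of 17 MKI67 control peaks were found in shTRA2A and 5 of 17 in shMETTL3, 1 of them in both. Off the control peaks, shTRA2A had a span of 2077 nt (chr10:128099184-128101260, score 8.53), 25 nt from the nearest control peak, and a peak of 75 nt (chr10:128108038-128108112, score 8.98) at 50 nt.

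NUMA1 (chr11:72002864-72080542, minus strand), which anchors dynein and microtubules at the spindle poles, had no control peak found in shTRA2A and 1 of 5 in shMETTL3. It was the gene with peaks on both strands, 3 of 6 in shTRA2A, 2 of 8 in shMETTL3 and 2 of 5 in shNC being on the plus strand. All of the plus strand peaks except 1 lay in NUMA1-AS1, a long non-coding RNA gene on that strand inside the NUMA1 body. The exception, the shMETTL3 peak chr11:72002849-72002898 (score 18.4), touches the last bases of NUMA1 and lies in IL18BP, which encodes a binding protein of interleukin 18 and is on the plus strand. Of the 6 minus strand shMETTL3 peaks, 4 also lay within the body of IL18BP.

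Peaks on both strands of NUMA1 lay nearly opposite each other. In the control, chr11:72014866-72014940 on the plus strand (score 12.4) faced chr11:72014848-72014922 on the minus strand (score 13.2), and chr11:72014966-72015015 (score 12.9) faced chr11:72014973-72015022 (score 12.3). In shTRA2A, chr11:72014441-72014515 (score 7.77) faced chr11:72014448-72014597 (score 8.88), and in shMETTL3, chr11:72014741-72014840 (score 5.45) faced chr11:72014748-72014847 (score 8.36). The shTRA2A span of 1366 nt on the plus strand (chr11:72018987-72020352) overlapped one of 613 nt on the minus strand, while the shTRA2A plus strand peak chr11:72014741-72014790 had no shTRA2A peak opposite. The library kit is stranded per the labels, while the sources used here do not give how strand entered the peak calling, so which RNA carried these peaks was not tested.

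The promoter window of NUMA1-AS1 (chr11:72014041-72014340, plus strand, RefSeq on GRCh38.p14) is the only one touched by a peak of these genes, and is printed for that reason. An shTRA2A peak on the minus strand (chr11:72013948-72014072, score 7.89) shares 32 bases with it, in capitals below, and no control or shMETTL3 peak touches it.
NUMA1-AS1: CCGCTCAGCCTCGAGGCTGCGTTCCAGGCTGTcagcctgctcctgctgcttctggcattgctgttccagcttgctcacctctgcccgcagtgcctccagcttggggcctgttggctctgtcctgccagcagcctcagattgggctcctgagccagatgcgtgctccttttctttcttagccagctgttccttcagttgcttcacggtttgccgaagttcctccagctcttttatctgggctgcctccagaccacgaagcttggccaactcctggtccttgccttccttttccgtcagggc

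TPX2 (chr20:31739290-31801800), which activates Aurora A kinase on spindle microtubules, had 1 shTRA2A peak of 50 nt near the 3′ end (chr20:31798459-31798508, score 8.62), no shMETTL3 peak, and a control span of 1138 nt (chr20:31770459-31771596, score 14.8). The peaks were 26862 nt apart. CKAP5 (chr11:46743048-46846280, minus strand), a microtubule polymerase, had a control peak of 100 nt at 99.1% of its gene body (chr11:46743973-46744072, score 12.6) and none in the knockdown lists.

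**Figure D3:**
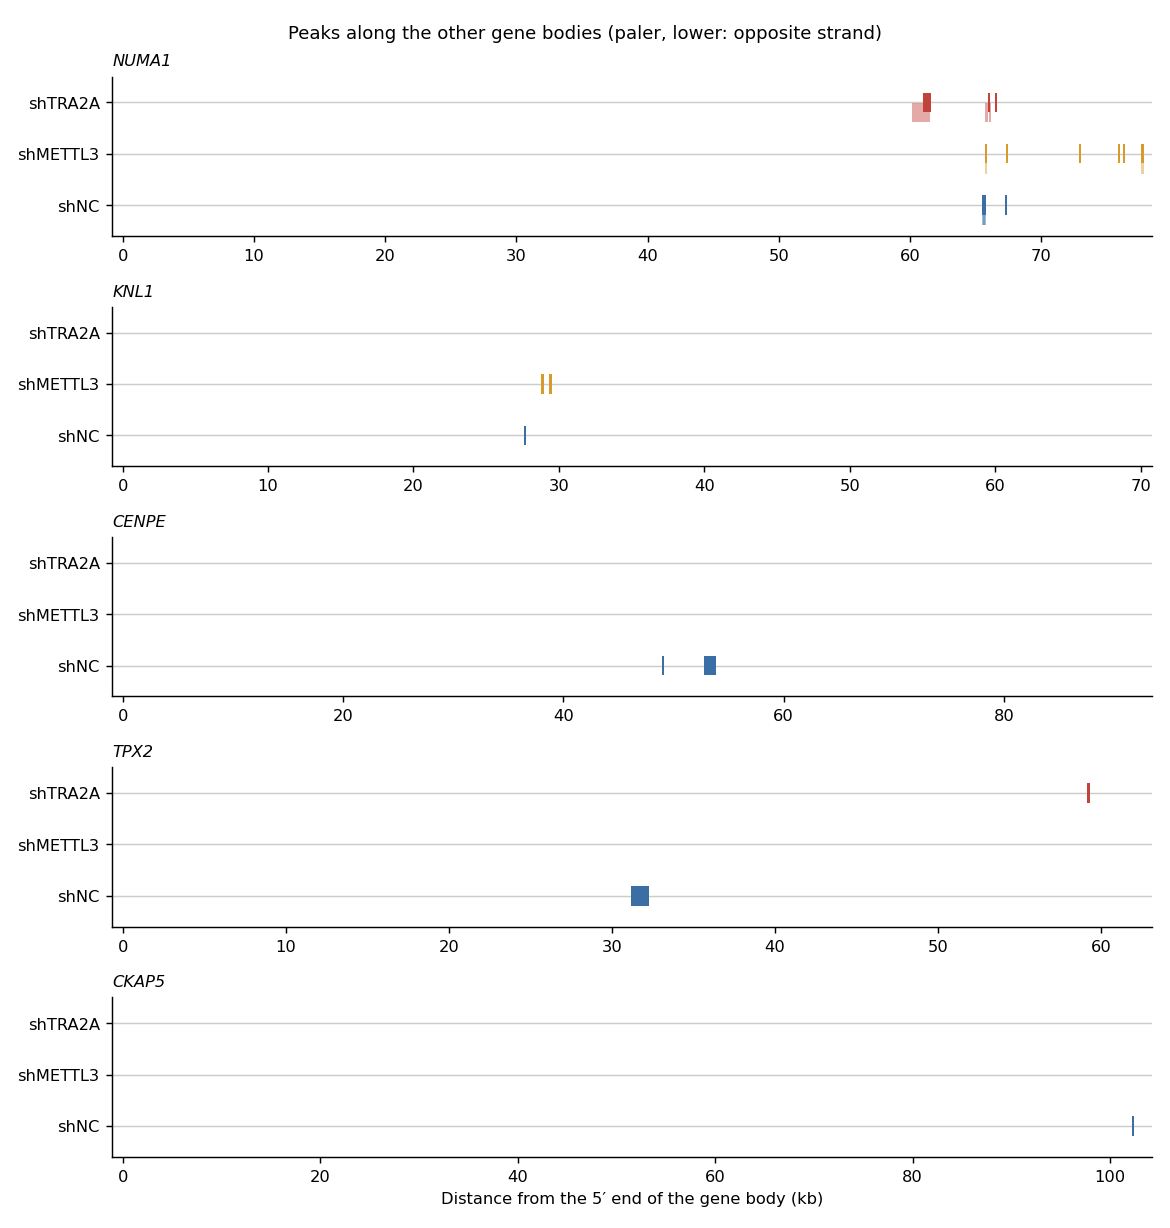
Peaks along the bodies of NUMA1, KNL1, CENPE, TPX2 and CKAP5, with the distance from the 5′ end in kb on the horizontal axis and a row for each list. Paler, lower bars are peaks on the strand opposite to the gene, seen in NUMA1 alone among the 9 genes. The strand of KNL1 and TPX2 was taken from their peaks.

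Over the 9 genes, 6 of 76 control peaks were found in shTRA2A, 7.89% (2.95 to 16.4%), against 9.58% of all control peaks. Of these 6, 3 lay in BOD1L1, and without that gene the share was 3 of 59, 5.08%. In shMETTL3, 20 of 76 were found, 26.3% (16.9 to 37.7%), against 17.9% of all. These are exact Clopper-Pearson 95% intervals, which cover counting error alone and take peaks of 1 gene as independent. Both intervals hold the value of the whole list, and no difference between the genes and the list was tested. In both knockdown lists 4 of 76 were found, 5.26% against 5.01% of all, and in neither 54, 71.1% against 77.5%.

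Control scores of these genes were high for their list. Of the 76 control peaks 59 scored above the list median, 77.6%, and the median score of the 76 was 15.3 against 12.4 for the list. Most of the 59 were in CENPF (20 of 26), BOD1L1 (14 of 17) and MKI67 (14 of 17). NUMA1 had 4 of 5, ASPM 3 of 6, CENPE 1 of 2, and KNL1, TPX2 and CKAP5 1 of 1 each. In the 37 other coding genes with 10 or more control peaks, 323 of 471 scored above the list median. Among peaks above the list median, 6 of 59 were found in shTRA2A, 10.2% (3.82 to 20.8%), against 16.3% of all such control peaks. In shMETTL3 it was 17 of 59, 28.8% (17.8 to 42.1%), against 29.3% of all such peaks. At this score level the shMETTL3 share of the 9 genes was thus near that of the list.

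The other 37 coding genes with 10 or more control peaks gave a further comparison. Their control peaks were found in shTRA2A in 12.3% of 471 cases (9.48 to 15.6%) and in shMETTL3 in 15.5% (12.3 to 19.1%). Against their control counts, their summed peak numbers were 20.8% in shTRA2A and 28.2% in shMETTL3. CENPF had 7.69% of its control number in shTRA2A, and 12 of the 37 genes had as low a ratio or lower, 11 of these with no shTRA2A peak. In shMETTL3 CENPF had 46.2% of its control number, and 33 of the 37 genes had as low a ratio or lower. BOD1L1 had 23.5% of its control number in shTRA2A and 35.3% in shMETTL3, and 21 of the 37 genes had as low a ratio or lower in each. MKI67 had 29.4% in shTRA2A, where 27 of the 37 had as low a ratio or lower, and 35.3% in shMETTL3, where 21 had. Control counts chose the 37 genes too, so these ratios are a description.

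**Figure D4:**
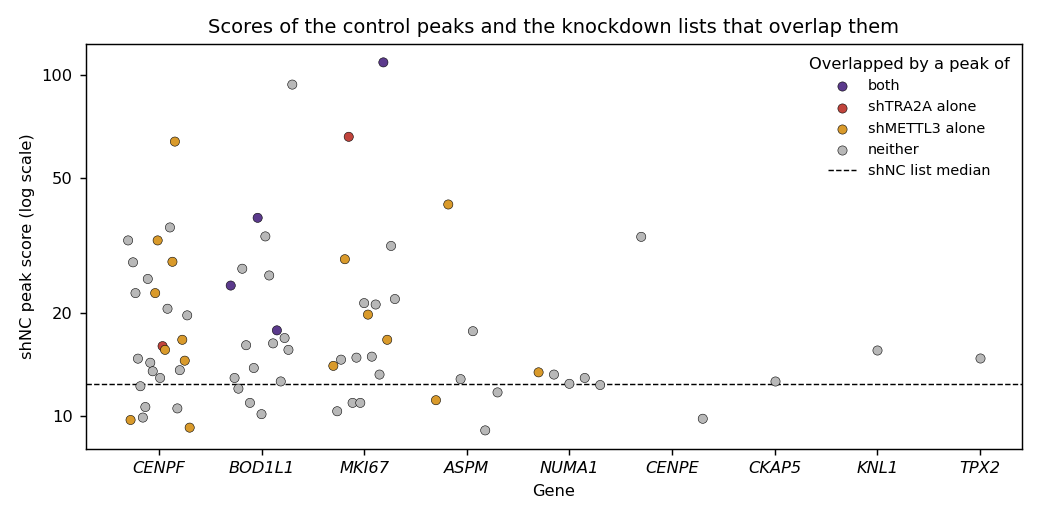
Scores of the 76 control peaks by gene (log scale), coloured by the knockdown list whose peaks overlap them. Points of a gene run from left to right by coordinate, and the dashed line is the median of the control list, 12.4. The strongest peak, in MKI67, was found in both knockdown lists, and the strongest BOD1L1 peak, at 93.8, in neither.

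**Figure D5:**
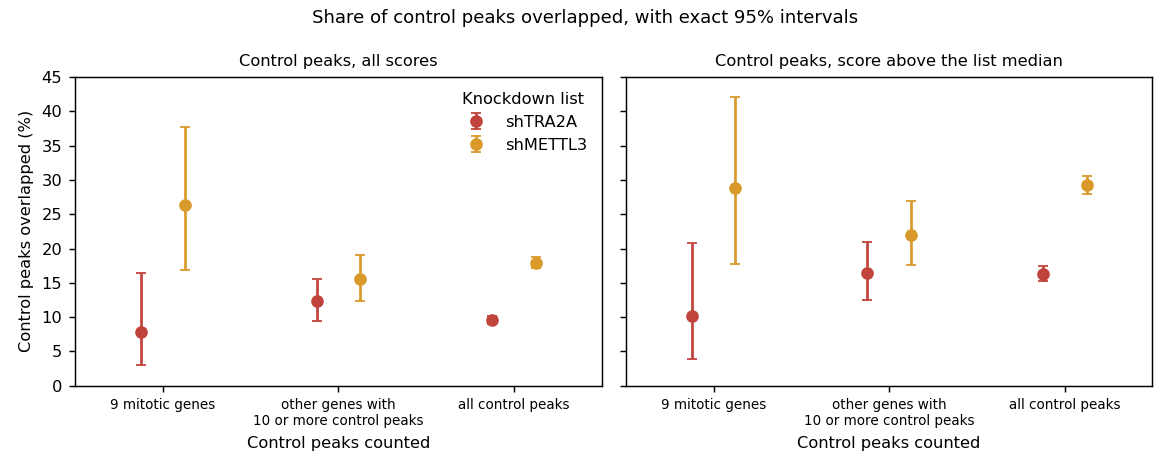
Share of control peaks overlapped by an shTRA2A or shMETTL3 peak, in percent with exact 95% intervals for counting error, for the 9 mitotic genes, for other genes with 10 or more control peaks and for all control peaks. Left, all scores. Right, peaks scoring above the control median, where the shMETTL3 share was 28.8% in the 9 genes, 22% in the other genes and 29.3% in the list.

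Read from the knockdown side, 8 of 18 shTRA2A peaks of the 9 genes were on a control peak, 44.4% (21.5 to 69.2%), against 33.8% of the whole list. They were in CENPF, BOD1L1 and MKI67, and none of the 6 NUMA1 peaks was among them. Of the 42 shMETTL3 peaks 22 were on a control peak, 52.4% (36.4 to 68.0%), against 32.7% of the whole list. By gene these were 9 of 12 in CENPF, 5 of 6 in MKI67, 4 of 8 in ASPM, 3 of 6 in BOD1L1, 1 of 8 in NUMA1 and none of 2 in KNL1. Control peak numbers helped to choose the genes, so these shares are a description.

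Peak widths differed between the lists. The median width over the 9 genes was 150 nt in shTRA2A, 75 nt in shMETTL3 and 112.5 nt in shNC, against 100, 100 and 125 nt for the whole lists. Most peaks have a width that is a multiple of 25 nt. In the 9 genes 6 of 18 shTRA2A peaks, 5 of 42 shMETTL3 peaks and 13 of 76 shNC peaks did not. These are 33.3%, 11.9% and 17.1%, against 32.7%, 29.7% and 19.4% of the whole lists. The widest was a control span of 8196 nt in CENPF (chr1:214620912-214629107, score 28.2). Such spans may cross introns, so their length is no measure of methylated sequence.

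The first 33.3% of the gene bodies, introns included, held few peaks. Other genes were not split in this way, so nothing particular to these genes is read from it. In the sense direction it held none of the 15 shTRA2A peaks, 3 of the 40 shMETTL3 peaks (CENPF 2, BOD1L1 1) and 4 of the 74 shNC peaks (CENPF 2, BOD1L1 1, ASPM 1). The stretch from 66.7% to the 3′ end held 10, 28 and 36. In BOD1L1 14 of 17 control peaks lay between these bounds, and in CENPF 11 of 26 did.

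A wider list of 143 other mitotic genes was set beside them: kinetochore and checkpoint, spindle and cytokinesis, chromosome structure and cohesion, and mitotic entry and exit. A peak was found in 24 of the 143 in shTRA2A, in 46 in shMETTL3 and in 57 in shNC. Over all 20050 coding genes it was 1914, 3421 and 4398, which are 9.55%, 17.1% and 21.9%. In each list the 143 held a higher share than all coding genes, a difference that was not tested. Of the 57 marked in the control, 15 were also marked in shTRA2A, 26.3% (15.5 to 39.7%), and 31 in shMETTL3, 54.4% (40.7 to 67.6%), next to the 28.7% and 48.6% of all coding genes. The shares among genes marked in the control were near those of all genes. By group, shTRA2A and shMETTL3 peaks were present in 2 and 7 of 16 control peak genes for kinetochore and checkpoint, 6 and 14 of 21 for spindle and cytokinesis, 3 and 7 of 13 for chromosome structure and cohesion, and 4 and 3 of 7 for mitotic entry and exit.

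None of the 143 had more than 5 control peaks. WAPL, the cohesin release factor, had 0 shTRA2A, 4 shMETTL3 and 5 shNC peaks. NIPBL, the cohesin loader, had 0, 4 and 4 peaks with a best control score of 74.9. SMC3, a cohesin subunit, had 0, 2 and 3, SGO2, a protector of centromeric cohesion, 0, 1 and 3, and CKAP2L, a spindle protein, 0, 3 and 4. Among the genes named for the most control peaks, GPSM2 and FZR1 had shTRA2A peaks. GPSM2, which links NUMA1 to the cell cortex, had 3, 3 and 4, and FZR1, an activator of the anaphase-promoting complex, had 2, 3 and 3. Control peaks found in shMETTL3 were 3 of 4 in NIPBL, 2 of 3 in SMC3 and in SGO2, and 2 of 4 in GPSM2. They were 2 of 5 in WAPL, 1 of 3 in FZR1 and 1 of 4 in CKAP2L. Over the wider list 33 of 108 control peaks were found in shMETTL3, next to 1650 of 9206 (17.9%) of all control peaks. In shTRA2A it was 9 of 108, next to 882 of 9206 (9.58%). Peak scores were not matched here, and no difference was tested. A span of 4008 nt was the best peak of FZR1 in every list, with scores of 44.8 in shTRA2A (rank 5), 9.14 in shMETTL3 and 57.0 in shNC. The bodies of GPSM2, FZR1 and CKAP2L overlap another coding gene (CLCC1, MFSD12 and NT5DC4), to which their peaks may belong.

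Of the 86 genes of the wider list without a control peak, 9 had a peak in shTRA2A, 10.5% (4.90 to 18.9%), against 4.15% of all coding genes without a control peak. In shMETTL3 15 of the 86 had one, 17.4% (10.1 to 27.1%), against 8.19%. These differences were not tested. CENPB, which binds centromeric satellite DNA, had 1 shTRA2A peak (score 15.6, rank 76) and 4 shMETTL3 peaks (best score 16.3). SKA2, of the kinetochore Ska complex, had 1 shTRA2A peak (score 8.57), and NCAPG2, a condensin II subunit, had 1 shTRA2A peak (score 7.88) and 1 shMETTL3 peak. CLASP1, a microtubule stabiliser, had 1 shMETTL3 peak of high rank (score 48.9, rank 17), and CDC25A, a phosphatase that activates cyclin-dependent kinases, had 1 (score 12.6).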

How the data were processed

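The deposited files are 12-column BED peak lists without a header, 1 per condition. Each peak has a score in column 5, made by the authors on a scale that neither the labels nor the lists state. Per the submitters' processing notes the build was GRCh38 and the tools included featureCounts 2.0.1, HISAT2 2.2.1 and SAMtools. The sources used here name no peak caller. Of 4 lists, 1 matches no label, equals the shTRA2A list byte for byte and was not used.

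Coordinates were turned to count from 1. A peak was given to each RefSeq gene body (GRCh38.p14) it touches. A control peak counts as found if a knockdown peak on its strand covers 1 or more of its bases. This code was tested on simulated data, and no control peak differed from bedtools 2.31.1 (0 of 9206 for each knockdown). Regular peaks are 1 block, at most 1000 nt wide and a multiple of 25 nt. Stretches join sense control peaks at most 1000 nt apart, a distance chosen after the positions were seen. Strand came from RefSeq promoter windows for 7 of the 9 genes. Python 3.11.15, numpy 2.4.6, pandas 2.3.3, scipy 1.17.1 and matplotlib 3.10.9 were used.

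Members and lists were chosen with earlier results of these data known. All 9 genes are named, and of the wider list the 8 with the most control peaks (1 of them is not reported here) and, per knockdown, the 3 with the best peak among genes without a control peak. Of 144 listed genes, 143 matched a coding gene. Other overlap rules, score limits, list lengths, strand, gene assignment and merging were tried.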

Additional observations from a re-analysis of the deposited data

How the results depend on the processing

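The share of control peaks of the 9 genes found in shTRA2A ran from 4.76% to 10.5% over all alternatives but 1, and in shMETTL3 from 18.4% to 33.3%, all inside the intervals given above. The exception was each list limited to its 2736 best peaks, where 5 of 30 control peaks, 16.7%, were found in shTRA2A, because fewer and stronger control peaks were counted. The whole-list value for shTRA2A was then 22.1%. For shMETTL3 it was 25.5%, against 23.3% (7 of 30) in the 9 genes. For shTRA2A and shMETTL3 the whole-list values also left their narrow intervals with midpoints within 100 nt (7.20% and 14.5%), among the 50% of peaks that score best in each list (12.0% and 19%), with regular peaks (8.22% and 16.4%) and with peaks within 100 nt merged (10.7% and 19.6%). For shMETTL3 they did so with 50% of the narrower peak shared (17.1%) and with only the shMETTL3 list limited to its 2736 best peaks (11.4%, against 18.4% in the 9 genes), an alternative added after the data were seen. The shMETTL3 share of the 9 genes was thus below the whole-list value with equal list lengths, and also among the best-scoring 50% (18.6%). It was above that value with midpoints within 100 nt (22.4%), regular peaks (22.2%) and merging (33.3%). The same held with 50% of the narrower peak shared (26.3%) and with strand ignored (26.3%, against 18.6% of all). Leaving out a gene was also added after the data were seen. Without BOD1L1, which holds 3 of the 6 control peaks found in shTRA2A, the shTRA2A share was 5.08% (3 of 59). Without CENPF, MKI67 or NUMA1 it was 10.0%, 6.78% and 8.45%. The shMETTL3 share was 28.8% without BOD1L1, and 22%, 25.4% and 26.8% without CENPF, MKI67 or NUMA1. Counting the best-scoring 50% alone, the 9 genes held 11 shTRA2A and 26 shMETTL3 peaks, and 12 wider list genes had an shTRA2A peak. With lists of 2736 peaks the 9 genes held 26 shMETTL3 and 30 shNC peaks, and 30 wider list genes had a control peak. Of 162 peak numbers of single genes, 134 stayed within 1.5 times the value given. The alternatives only drop or join peaks, so no number could rise. Numbers of 0 could not move, nor could shTRA2A numbers under the limit of 2736 peaks, the length of that list. The 134 is therefore no measure of stability. No paired analysis was possible because each condition has 1 library pair. Depth limits what can be called in each list and is not known here.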
